A study of Mus musculus with 6 samples.

Results

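The 9 genes described here encode enzymes that make glucose or handle fructose in the kidney. They were taken by name from the 54532 genes of the deposited tables. Pcx, Pck1, Pck2, Fbp1, Fbp2 and G6pc belong to gluconeogenesis, and Khk, Tkfc and Sord to the handling of fructose and sorbitol. Bulk kidney RNA was sequenced from 3 wild-type (WT) mice and 3 Trpm2-/- (knockout, KO) mice, numbered 1, 2 and 3 and 1, 2 and 4 in the labels. All of them were C57BL/6J mice of 6 to 8 weeks by the labels, and the study's methods give males and an older range. Both genotypes received a single intraperitoneal injection of cisplatin at 18 mg/kg, a platinum drug that injures the proximal tubule, and kidneys were taken after 72 h. The KO allele is a germline deletion of exons that leaves TRPM2, a calcium-permeable channel opened by ADP-ribose, without part of its transmembrane region in every cell. No kidney without cisplatin is part of the comparison, which therefore asks only how the genotypes differed under the drug.

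The proximal tubule is, with the liver, the main site of glucose synthesis in the body. It takes up lactate, glutamine and glycerol and turns them into glucose. Pyruvate carboxylase (Pcx) makes oxaloacetate from pyruvate in mitochondria, and a phosphoenolpyruvate carboxykinase, cytosolic (Pck1) or mitochondrial (Pck2), turns oxaloacetate into phosphoenolpyruvate. Fructose bisphosphatase (Fbp1 in liver and kidney, Fbp2 best known from muscle) and the catalytic subunit of glucose phosphatase (G6pc) carry the last irreversible steps. The same cells break down fructose: ketohexokinase (Khk) phosphorylates it, the product is split, and triokinase (Tkfc) phosphorylates the glyceraldehyde that is released. Sorbitol dehydrogenase (Sord) makes fructose from sorbitol, the second step of the polyol pathway.

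Of each carboxykinase and bisphosphatase there is a pair of paralogues, and these pairs parted in the data. Over their coding sequences Pck1 and Pck2 were identical at 70.5% of aligned bases, and Fbp1 and Fbp2 at 70.0%, and Fbp1 and Fbp2 lie next to each other on chromosome 13. Fbp1 spans 62864753 to 62888282 and Fbp2 62836877 to 62858422, both on the minus strand of GRCm38. Pck1 spans 173153048 to 173159273 on the plus strand of chromosome 2, and Pck2 spans 55540266 to 55551242 on the plus strand of chromosome 14. The bases just upstream of these 4 genes, as RefSeq gives them, follow 5′ to 3′ along each gene's strand, because it is here that the members of a pair can be set side by side. Capitals mark letters of the motifs searched on both strands.
Pck1, chr2:173152823-173153047, plus strand: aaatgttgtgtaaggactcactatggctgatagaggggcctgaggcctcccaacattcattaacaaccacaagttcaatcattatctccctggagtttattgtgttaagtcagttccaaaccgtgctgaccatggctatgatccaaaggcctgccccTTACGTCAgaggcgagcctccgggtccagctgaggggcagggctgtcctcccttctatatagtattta
Pck2, chr14:55540016-55540265, plus strand: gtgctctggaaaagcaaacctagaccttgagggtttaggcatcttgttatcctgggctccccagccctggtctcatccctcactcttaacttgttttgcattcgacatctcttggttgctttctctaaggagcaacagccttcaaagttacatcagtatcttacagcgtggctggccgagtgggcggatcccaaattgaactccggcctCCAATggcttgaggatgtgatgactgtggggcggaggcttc
Fbp1, chr13:62888283-62888532, minus strand: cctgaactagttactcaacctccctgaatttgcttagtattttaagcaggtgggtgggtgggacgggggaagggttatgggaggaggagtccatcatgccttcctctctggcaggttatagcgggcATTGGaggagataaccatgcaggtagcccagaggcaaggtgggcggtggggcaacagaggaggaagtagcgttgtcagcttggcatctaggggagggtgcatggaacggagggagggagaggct
Fbp2, chr13:62858423-62858650, minus strand: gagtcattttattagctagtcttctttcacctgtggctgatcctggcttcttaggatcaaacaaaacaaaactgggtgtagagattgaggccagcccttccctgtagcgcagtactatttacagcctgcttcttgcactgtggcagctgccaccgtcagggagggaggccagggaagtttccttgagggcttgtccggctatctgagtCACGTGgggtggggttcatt

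The stretch upstream of Pck1 holds TTACGTCA, a form of the cyclic AMP response element that is known from this gene, at positions -93 to -86 from the RefSeq start. Of 32851 mouse promoters, taken as the 250 bases before each start, 0.447% hold these letters on either strand. Among the 10 promoters of the 9 enzymes (Pcx has 2) they occur in Pck1 alone. TGACGTCA, which differs from it in the second letter, is in none of the 10 and in 1.55% of all. The E-box CACGTG is in the promoters of Fbp2, Khk and Pcx (6.02% of all), and CCAAT is in those of Fbp1, G6pc, Pck2, Pcx and Tkfc (33.8% of all). TATAAA is in that of G6pc (12.4% of all). GTAAACA (a forkhead motif, 3.17% of all) and CAAAGTCCA (an HNF4 motif, 0.384% of all) are in none of the 10. None of these matches overlapped another, and a match in letters is a description of the window only.

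The libraries held 14053307 to 17150089 counts on genes. Genes of the mitochondrial genome took 4.43% to 4.72% of the counts in WT and 7.91% to 11.0% in KO libraries. Trpm2 itself had 5, 5 and 27 counts in WT and 10, 16 and 20 in KO libraries. A count over the whole gene includes the exons that the allele keeps, so it does not check the labels. WT replicate 1 stood apart in fat markers, with 64 counts of Adipoq where the other 5 libraries had 0 to 2. KO replicate 4 stood apart in podocyte markers, with a summed 384.8 CPM (counts per common library total, scaled by TMM) against 95.1 to 136 CPM in the other libraries. Its endothelial markers summed to 142 CPM against 33.0 to 67.7 CPM, and its fibroblast markers to 78.7 CPM against 22.3 to 47.6 CPM.

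All 9 enzymes passed the filter on low counts. At an adjusted p under 0.05 in the edgeR quasi-likelihood test, 5 of 9 (Pcx, Pck1, Fbp1, Khk and Sord) were lower in KO and 0 were higher. Of all 15816 genes tested, 7.28% were lower and 4.74% higher at this threshold. The study's own threshold, a log2 fold change beyond 1 in size with p under 0.05, was passed by 5 of 9 as well, with G6pc in the place of Pcx, against 4.10% of all genes lower by that rule. For 7 of 9, every KO library lay below every WT library, which held for 16.8% of all genes. The median log2 fold change was -1.41 over the 9 enzymes and 0.02 over all genes tested. Since the tissue was bulk kidney, fewer proximal tubule cells and less RNA per cell cannot be told apart here.

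**Figure D1:**
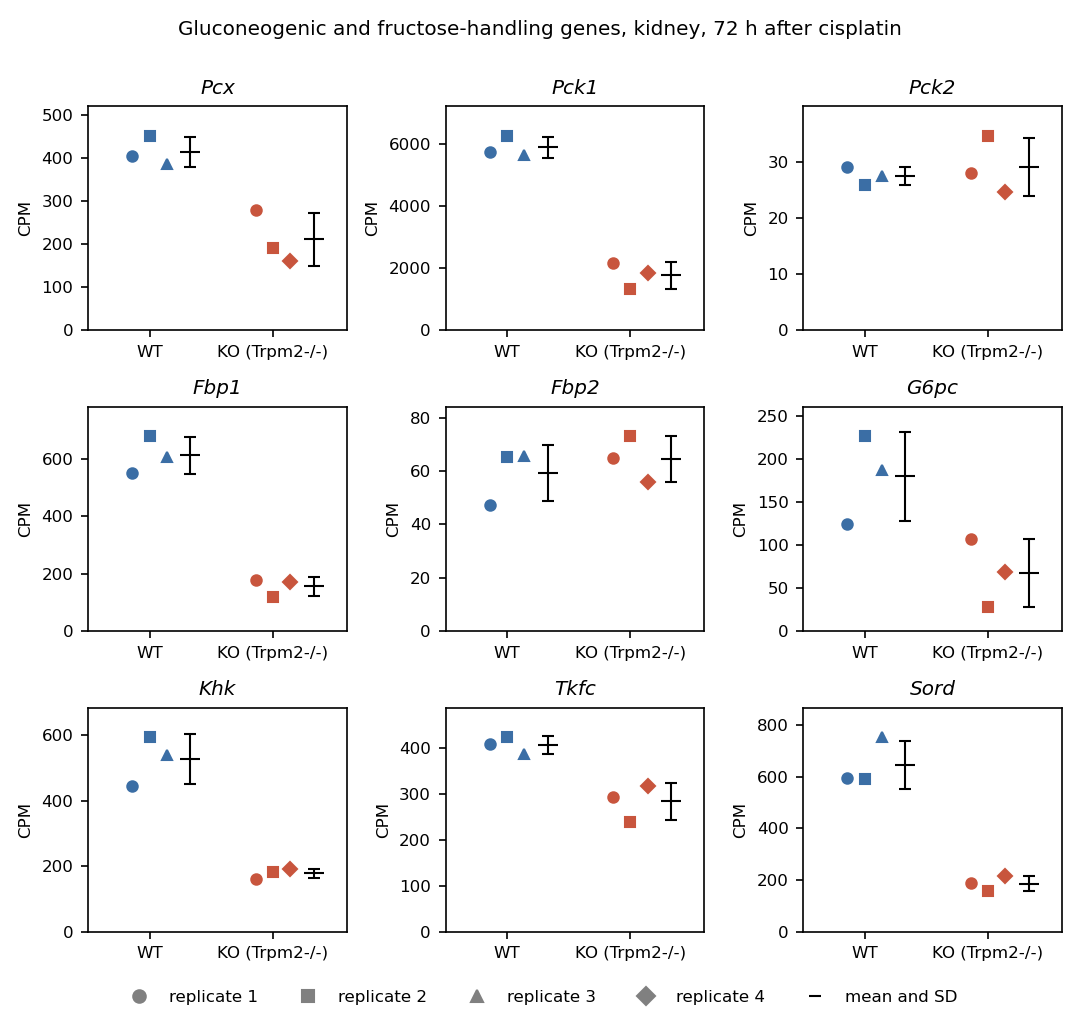
CPM of each enzyme (linear axes from 0) in the 3 WT and 3 KO libraries, 1 point per library with the shape giving the replicate number, and the mean and SD as bars. Pcx, Pck1, Fbp1, G6pc, Khk, Tkfc and Sord are lower in every KO library than in any WT library, while the genotypes overlap for Pck2 and Fbp2.

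RNA of Pcx, which brings pyruvate into the pathway, was lower in KO kidneys. The gene lies on the plus strand of chromosome 19 from 4510472 to 4621752. It had 405.2, 451.3 and 384.5 CPM in WT and 280.1, 190.8 and 161.8 CPM in KO replicates 1, 2 and 4. The genotypes did not overlap, and KO replicate 1 lay nearest to the WT libraries. Pcx fell by 0.97 on the log2 scale (SE 0.202, 95% interval -1.42 to -0.52, adjusted p = 0.0157, edgeR), to 51.0% of WT. This call did not hold in every fit. Without WT replicate 2 the log2 fold change was -0.91 with an adjusted p of 0.0695 in edgeR, where 521 of all genes were lower against 1152 with it. In the libraries numbered 1 and 2 the adjusted p was 0.0553 with a replicate block and 0.0843 without (edgeR). Over 18 alternatives it ran from 9.11e-07 to 0.0843. Lrfn4 overlaps Pcx on the opposite strand but had 185 to 239 counts per library, where Pcx had 2599 to 7024.

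Pck1, the cytosolic carboxykinase and a classical target of glucagon, glucocorticoids and acidosis, was the enzyme of the group with the highest level per length in both genotypes. It had 5757, 6282 and 5659 CPM in WT and 2172, 1322 and 1839 CPM in KO libraries. The lowest WT library held more than the highest KO library by a wide margin, and KO replicate 2 was the lowest of all. Pck1 fell by 1.73 on the log2 scale (SE 0.214, 95% interval -2.21 to -1.25, adjusted p = 0.00221, edgeR), to 30.1% of WT. In FPKM, which divides by gene length, this was 1505 ± 87.05 in WT and 457.4 ± 111.2 in KO (SD, n = 3).

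Pck2, the mitochondrial carboxykinase, showed no such difference. It had 29.11, 25.89 and 27.55 CPM in WT and 28.03, 34.75 and 24.66 CPM in KO libraries. The genotypes overlapped, and KO replicate 2, which held the least Pck1, held the most Pck2. The log2 fold change was 0.08 (SE 0.158, 95% interval -0.27 to 0.44, adjusted p = 0.779, edgeR), so that a level between 82.9% and 135% of WT lies within the interval. Its sign depended on KO replicate 2, without which the log2 fold change was -0.06.

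Within each library Pck1 exceeded Pck2 in FPKM 450-, 552- and 468-fold in WT and 176-, 86.6- and 170-fold in KO. The log2 ratio was 8.93 ± 0.16 in WT and 7.10 ± 0.58 in KO (SD, n = 3), a difference of -1.83. The genotypes did not overlap in this ratio, and the two-sided exact permutation test gave p = 0.1, the smallest that 3 against 3 libraries can give (adjusted p = 0.15 over 12 ratios). Pcx, relative to Pck1, was higher in KO, since it fell less: the FPKM ratio was 0.0520, 0.0531 and 0.0502 in WT and 0.0954, 0.107 and 0.0651 in KO (log2 difference 0.75, exact permutation p = 0.1, adjusted p = 0.15).

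Fbp1 had the largest difference of the 9. It had 553.2, 680.3 and 606.3 CPM in WT and 178.4, 117.1 and 171.4 CPM in KO libraries. Every WT library was at least at 553.2 CPM and no KO library exceeded 178.4 CPM. Fbp1 fell by 1.98 on the log2 scale (SE 0.189, 95% interval -2.40 to -1.56, adjusted p = 0.00126, edgeR), to 25.4% of WT. Fbp2, its neighbour, had 47.18, 65.15 and 65.64 CPM in WT and 64.76, 73.12 and 56.04 CPM in KO libraries. These values overlapped, with a log2 fold change of 0.12 (SE 0.166, 95% interval -0.25 to 0.50, adjusted p = 0.675, edgeR). WT replicate 1 was the lowest for Fbp2, and without it the log2 fold change was -0.02.

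The FPKM ratio of Fbp1 to Fbp2 was 10.1, 9.01 and 7.97 in WT and 2.38, 1.38 and 2.64 in KO libraries. The log2 difference of -2.13 was the largest of the 12 ratios (exact permutation p = 0.1, adjusted p = 0.15). The markers of skeletal muscle, where Fbp2 is best known, were near 0: the 4 of them summed to 0.872 to 2.09 CPM per library.

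G6pc, which releases free glucose, varied most between the mice of a genotype. It lies on the plus strand of chromosome 11 from 101367561 to 101377903 and has 5 exons. It had 124.7, 226.1 and 187.4 CPM in WT and 106.4, 27.58 and 68.87 CPM in KO libraries. KO replicate 1 lay just below WT replicate 1, and KO replicate 2 was lower than KO replicate 1 by 3.86-fold. The log2 fold change was -1.41 (SE 0.406, 95% interval -2.32 to -0.50, adjusted p = 0.0524, edgeR), which missed the threshold for adjusted p and passed the study's. Without KO replicate 1 the adjusted p was 0.0297 (log2 fold change -1.9), and without KO replicate 2 it was 0.0449 (log2 fold change -1.03). Leaving out any other library gave 0.0524 to 0.164 (edgeR), which did not pass. With limma-voom G6pc also passed, at an adjusted p of 0.0413, and with DESeq2 it did not, at 0.0891. Over 18 alternatives the adjusted p ran from 6.55e-15, in the edgeR fit without a filter, to 0.203. Apart from that fit the lowest was 0.0297. Its broadly expressed relative G6pc3 had 1325, 1361 and 1360 counts in WT and 896, 1006 and 1002 counts in KO libraries (log2 fold change -0.44, adjusted p = 0.0535, edgeR).

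**Figure D2:**
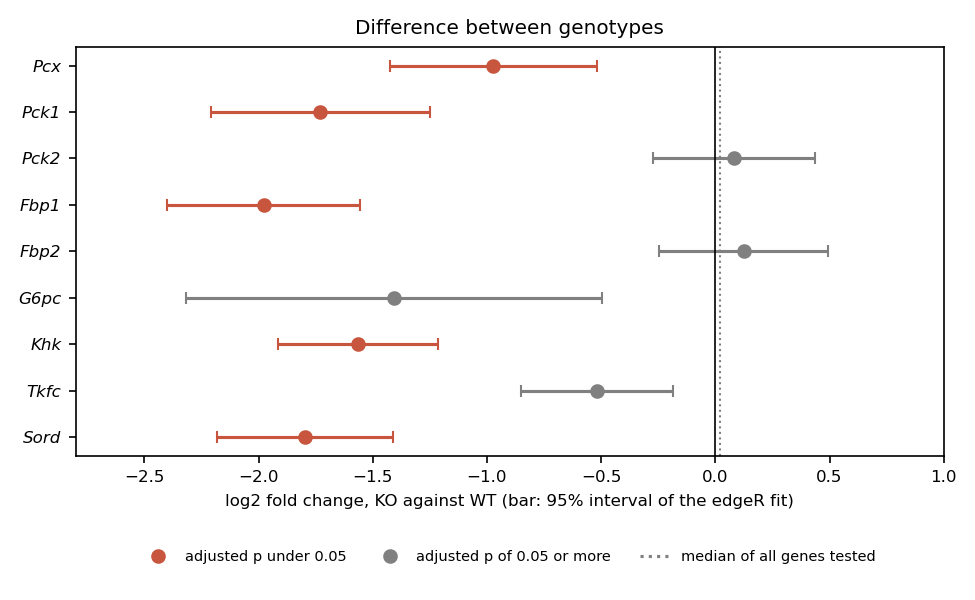
Log2 fold change of KO against WT for each enzyme, with the 95% interval of the edgeR fit as a bar, red where the adjusted p is under 0.05. Of the 4 grey points, G6pc (-1.41) and Tkfc (-0.52) have intervals below 0, and those of Pck2 and Fbp2 include 0.

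Khk and Sord, which phosphorylate and form fructose, both fell. Khk, on the plus strand of chromosome 5 from 30921431 to 30931248, had 444.4, 595.6 and 541.5 CPM in WT and 161.9, 182.1 and 190.5 CPM in KO libraries. The KO libraries lay close together, with a coefficient of variation of 8.25% against 14.5% in WT. Khk fell by 1.57 on the log2 scale (SE 0.157, 95% interval -1.92 to -1.21, adjusted p = 0.00126, edgeR), to 33.8% of WT. Sord, on the plus strand of chromosome 2 from 122234749 to 122265340, had 595.2, 593.1 and 755.6 CPM in WT and 187.2, 158.3 and 214.1 CPM in KO libraries. It fell by 1.80 (SE 0.172, 95% interval -2.18 to -1.41, adjusted p = 0.00126, edgeR), to 28.8% of WT. Of the 75-base windows of Sord's transcript, 26.12% also occur in the processed pseudogene Gm6652, so reads there could have been split. Gm6652 had 4 to 36 counts per library, where Sord had 2319 to 12317.

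Tkfc, on the minus strand of chromosome 19 from 10592200 to 10604258, had 408.4, 424.1 and 385.9 CPM in WT and 294.0, 238.4 and 317.6 CPM in KO libraries. The genotypes did not overlap, but the gap was narrow. The log2 fold change of -0.52 (SE 0.148, 95% interval -0.85 to -0.19) missed the threshold with an adjusted p of 0.0502 in edgeR. Without KO replicate 4, the highest KO library, it was -0.60 with an adjusted p of 0.0449, in a range of 0.0124 to 0.181 over 18 alternatives. Leaving out any other library gave 0.0819 to 0.181 (edgeR), which did not pass. GENCODE gives Tkfc a longer span than the deposited table, from 10587791 to 10605654. Over that longer span it overlaps Cyb561a3 by 8171 bases and Ddb1 by 328 bases on the opposite strand. The overlaps with the deposited span were not computed and may be smaller or absent. Cyb561a3 had 169 to 279 counts and Ddb1 had 4666 to 6609 counts per library, against 3492 to 6622 for Tkfc, and without strand their reads cannot be told apart where they overlap.

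The first and the last step of fructose breakdown thus differed in size. The FPKM ratio of Khk to Tkfc was 1.36, 1.76 and 1.76 in WT and 0.690, 0.958 and 0.752 in KO libraries. In FPKM, Khk was the higher in every WT library and Tkfc in every KO library (log2 difference -1.03, exact permutation p = 0.1, adjusted p = 0.15). Which of them is higher depends on the length used. Per kilobase of GENCODE's principal transcript, Khk was the higher in KO replicate 2, at 115 CPM against 94.8 CPM. Sord to Khk overlapped between the genotypes (log2 difference -0.24, exact permutation p = 0.3, adjusted p = 0.327). Sord to Akr1b3, the aldose reductase that makes sorbitol, was 8.79, 42.5 and 59.1 in WT and 16.5, 14.3 and 15.5 in KO (exact permutation p = 0.4, adjusted p = 0.4). WT replicate 1 set that spread, with 3912 counts of Akr1b3 against 579 to 792 in the other libraries, and it is also the library with fat markers, whose part in this was not tested.

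Set against the enzymes of glycolysis that run the opposite way, the gluconeogenic enzymes were lower in KO libraries. Fbp1 to the summed phosphofructokinases (Pfkl, Pfkm and Pfkp) was 12.0, 18.3 and 14.0 in WT and 6.46, 3.39 and 5.59 in KO (log2 difference -1.55). Pck1 to the summed pyruvate kinases (Pkm and Pklr) was 15.6, 17.1 and 17.1 in WT and 6.05, 3.70 and 6.15 in KO (log2 difference -1.68). Both gave an exact permutation p of 0.1 and an adjusted p of 0.15. G6pc to G6pc3 overlapped between the genotypes (log2 difference -1.12, exact permutation p = 0.2, adjusted p = 0.267). Of the 12 ratios, 8 did not overlap between genotypes, and the share among ratios of other genes was not computed. Counts in place of FPKM gave the same number. For a ratio of 2 single genes this follows from the units, which there differ only by a constant, so it is no separate check. In bulk kidney such ratios can also differ with the mix of cells, which was not tested. The summed proximal tubule markers differed by -1.20 on the log2 scale.

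**Figure D3:**
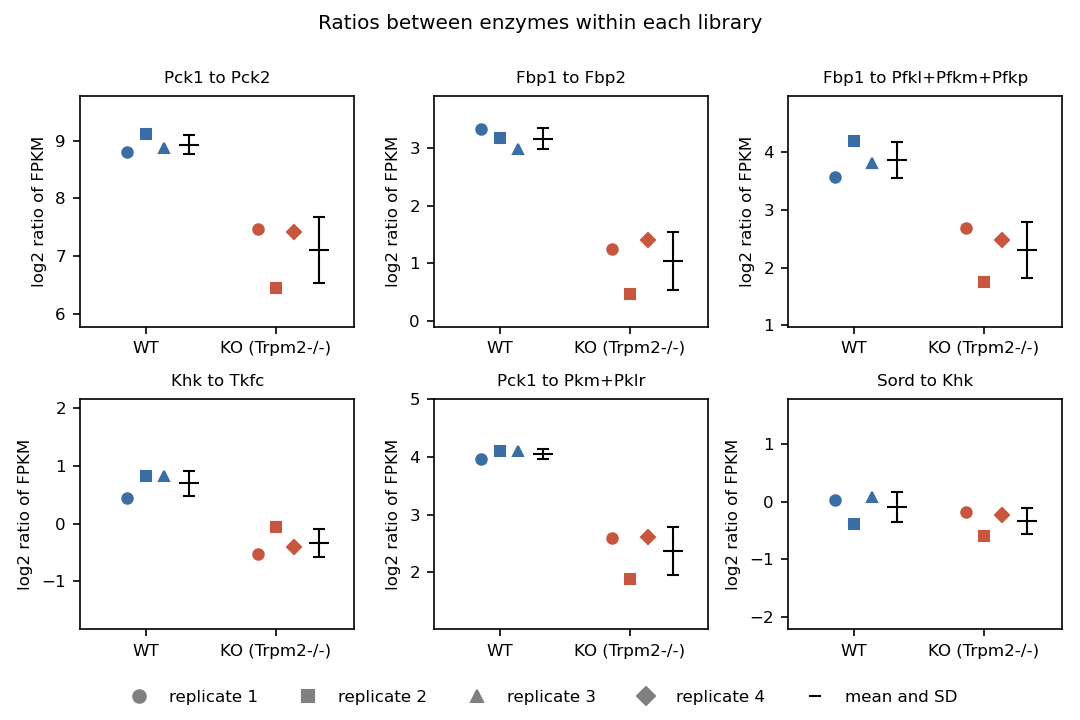
Log2 ratio of FPKM between enzymes within each library for 6 of the 12 ratios, 1 point per library, with mean and SD as bars; every panel spans the same height on its log2 axis. The ratios Pck1 to Pck2, Fbp1 to Fbp2, Fbp1 to the phosphofructokinases, Khk to Tkfc and Pck1 to the pyruvate kinases separate the genotypes, and Sord to Khk does not.

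The order of the levels per length (FPKM, means of 3) changed between the genotypes. In WT it ran from Pck1 at 1505 through Fbp1 at 315.2, Khk at 256.6, Sord at 240.9, Tkfc at 157.7, Pcx at 78.05, G6pc at 65.00 and Fbp2 at 35.32 to Pck2 at 3.084. Fbp1 and Khk, Khk and Sord, and Pcx and G6pc overlapped between WT libraries, and the other neighbours did not. In KO it ran from Pck1 at 457.4 through Tkfc at 111.0, Khk at 87.43, Fbp1 at 80.68, Sord at 69.98, Pcx at 40.09, Fbp2 at 38.78 and G6pc at 24.73 to Pck2 at 3.290. There the ranges of Tkfc, Khk, Fbp1 and Sord each overlapped that of the next, as did those of Pcx, Fbp2 and G6pc. Per kilobase of GENCODE's principal transcript the order was the same, except that Khk and Tkfc were level in KO.

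Among mice of a genotype, the enzymes did not vary in 1 common order. KO replicate 2 was the lowest KO library for Pck1, Fbp1, G6pc, Tkfc and Sord, KO replicate 4 for Pcx, Pck2 and Fbp2, and KO replicate 1 for Khk. WT replicate 2 was the highest WT library for 6 of 9. Over the 6 libraries, the profiles of Pck1 and Fbp1 were the most alike of the 36 pairs (root mean square difference of centred log2 CPM 0.142), and those of Pck2 and G6pc the least (1.11).

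Of 10640 protein-coding genes compared in the same way, those nearest to Pck1 were Maob (0.051), a monoamine oxidase, and Slc39a5 (0.110), a zinc transporter. Maob had 12.6, 12.8 and 12.9 CPM in WT and 4.53, 2.80 and 3.92 CPM in KO libraries. Its KO libraries stood in the order of Pck1, which is no separate result, since Maob was picked for its likeness to Pck1. Maob (0.138) and Car14 (0.142) were nearest to Fbp1, Tst (0.066) and Csrp2 (0.122) to Khk, and Sardh (0.112) and Cyp2j5 (0.115) to Sord. Pcx was most like Ndrg1 (0.102), and Tkfc most like Cyb5d2 (0.031) and Tmem106a (0.054). The nearest to G6pc, Acmsd and the lactate transporter Slc5a12, stood farther off, at 0.306 and 0.307. Pck2 was nearest to Ube2o and Agap3 (both 0.040), and Fbp2 to Elk4 (0.044) and Zc3hc1 (0.045), all with an adjusted p over 0.5 in edgeR.

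Some of the genes that supply the pathway and export its product were lower as well. Of 27 tested, 13 fell, 0 rose and 14 were not called at an adjusted p under 0.05, with a median log2 fold change of -0.57. Over all genes tested 7.28% were lower. The 4 with the smallest p were Slc5a8, which takes up lactate (-1.79, adjusted p = 0.00126), Slc37a4, which carries glucose phosphate to G6pc (-1.55, adjusted p = 0.00152), Slc38a3, which takes up glutamine (-1.53, adjusted p = 0.00165), and the cytosolic malate dehydrogenase Mdh1 (-1.39, adjusted p = 0.00217), all by edgeR. Slc37a4 had a mean of 301.7 ± 49.24 CPM in WT and 103.3 ± 16.5 CPM in KO (SD, n = 3). Outside the naming rule, Slc2a2, the exit for glucose, had 1720, 1834 and 1665 counts in WT and 1853, 802 and 1927 counts in KO libraries, which overlapped (log2 fold change -0.18, adjusted p = 0.695, edgeR).

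In the reversible steps that gluconeogenesis shares with glycolysis, the median log2 fold change was -0.38. Of 10 tested, 3 fell and 0 rose, against 7.28% lower and 4.74% higher over all genes tested. Among the 3 were Tpi1 (triose phosphate isomerase, -0.80, adjusted p = 0.00830) and Pgk1 (phosphoglycerate kinase, -0.74, adjusted p = 0.0180, edgeR). Aldoc, a low gene, had -1.52 with overlapping genotypes (adjusted p = 0.0521, edgeR). Gapdh, named after its values were seen, had 383, 358 and 340 counts in WT and 207, 2925 and 1583 counts in KO libraries. It has many processed copies in the mouse genome, so its counts are uncertain and no direction is given.

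The list of opposing glycolytic steps, which also holds the pyruvate dehydrogenase kinases, had a median log2 fold change of -0.06. Against 7.28% lower and 4.74% higher over all genes tested, 5 of its 15 tested genes were lower and 0 higher. The 4 of smallest p were 3 pyruvate dehydrogenase kinases, which hold pyruvate back from oxidation, namely Pdk2 (-1.42, adjusted p = 0.00182), Pdk3 (-0.71, adjusted p = 0.0129) and Pdk1 (-0.76, adjusted p = 0.0224), and the phosphofructokinase Pfkm (-0.80, adjusted p = 0.0202, edgeR). These kinases act on the side of glucose synthesis rather than against it. Pdk4, outside the naming rule, had 184.3 ± 29.96 CPM in WT and 286.1 ± 64.82 CPM in KO (SD, n = 3), with every KO library above every WT library (log2 fold change 0.63, adjusted p = 0.0576, edgeR). The fifth was Pfkl (-0.72, adjusted p = 0.0384), while Pfkp had 0.16, Pkm -0.16, Pklr 0.27, Hk1 -0.06 and Hk2 0.91, none of which passed. Hk3 had at most 4 counts in any library and was not tested.

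In the list of fructose, polyol and uronate handling, the median was -1. Against 7.28% lower and 4.74% higher over all genes tested, 10 of its 14 tested genes fell and 0 rose. The 4 of smallest p were Cryl1 (-1.51, adjusted p = 0.00131), of the uronate pathway, Xylb (xylulokinase, -0.89, adjusted p = 0.00491), Slc5a10, which carries fructose and mannose into the cell (-1.02, adjusted p = 0.00516), and Glyctk (glycerate kinase, -0.98, adjusted p = 0.00858, edgeR). Slc5a10 had 220.1 ± 40.67 CPM in WT and 108.4 ± 7.667 CPM in KO (SD, n = 3).

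Of 24 tested regulators, 2 fell and 2 rose, with a median of -0.10, where 7.28% of all genes tested were lower and 4.74% higher. With so few called, the list as a whole was not set apart from all genes. Klf15, a glucocorticoid-induced factor that drives gluconeogenic genes, went from 82.84 ± 8.536 CPM in WT to 31.72 ± 4.742 CPM in KO (log2 fold change -1.39, adjusted p = 0.00150, edgeR). Mlxipl, the carbohydrate response factor that binds E-box pairs, fell by 0.66 (adjusted p = 0.0433, edgeR). Sik1, a kinase that restrains the cyclic AMP response, rose by 0.56 (adjusted p = 0.0296), and Nr3c1, the glucocorticoid receptor, rose by 0.57 (adjusted p = 0.0299, edgeR). Outside the naming rule, Hnf4a had -0.49 (adjusted p = 0.135), Ppargc1a -0.46 (adjusted p = 0.181), Foxo1 -0.23 (adjusted p = 0.361), Creb1 0.37 (adjusted p = 0.107) and Crtc2 -0.11 (adjusted p = 0.656, edgeR).

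**Figure D4:**
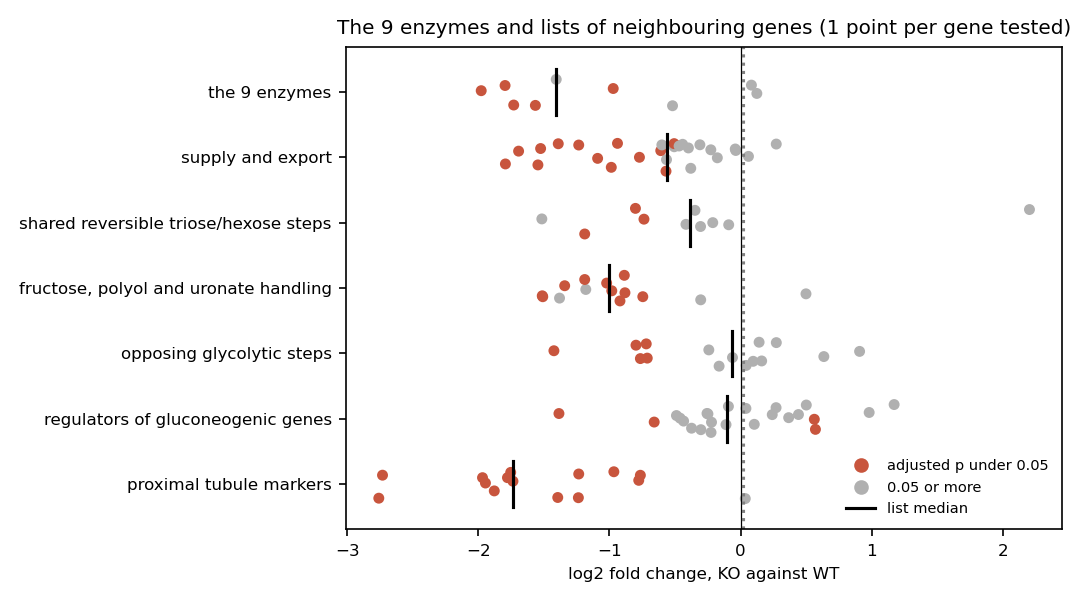
Log2 fold change of KO against WT for each gene tested in 7 lists, 1 point per gene (jittered within its row), red at an adjusted p under 0.05 in edgeR, with the list's median as a black line and the median of all genes (0.02) dotted. The 9 enzymes, the fructose list and the proximal tubule markers have medians of -1 or below. The opposing steps, with the pyruvate dehydrogenase kinases among them, and the regulators centre near 0. The grey point at 2.20 is Gapdh.

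The proximal tubule markers moved with these genes. Of 15 tested, 14 were lower in KO and 0 higher, with a median log2 fold change of -1.74, and Slc4a4 was the one not called. Beside these counts and those of the other markers below, 7.28% of all genes tested were lower and 4.74% higher. The summed level of the proximal tubule markers was 6382, 7006 and 7967 CPM in WT and 3326, 2678 and 3306 CPM in KO libraries, a log2 difference of -1.20. All 15 were detected in every library, among them Lrp2 and Cubn, which encode the endocytic receptors of the brush border. The lowest sum was again that of KO replicate 2. Among other cell types, 1 of 5 thick ascending limb and distal markers (Umod) and 2 of 6 collecting duct markers (Aqp2 and Aqp3) fell. Of the 4 podocyte, 4 endothelial, 3 fibroblast and 5 leukocyte markers, 0 were called. Of 5 injury markers, Krt20 and Sox9 rose. Hepatocyte markers, which could share gluconeogenic genes, summed to 60.7 to 220 CPM and 2 of 4 fell. Those 2 were Serpina1a and Ttr, with means of 103.5 and 45.05 CPM in WT. Alb was near 0, with 18, 20 and 22 counts in WT and 8, 14 and 1 in KO libraries.

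As a percentage of the summed proximal tubule markers of the same library, a scale chosen after seeing the data, 3 of the 9 enzymes (Pck1, Fbp1 and Sord) were lower in every KO library than in any WT library, against 0.816% of all genes tested. Pck1 stood at 90.2%, 89.7% and 71.0% of the marker sum in WT and at 65.3%, 49.4% and 55.6% in KO (log2 difference -0.56). Fbp1 stood at 8.67%, 9.71% and 7.61% in WT and at 5.36%, 4.37% and 5.18% in KO (log2 difference -0.80), and Sord at 9.33%, 8.47% and 9.48% in WT and 5.63%, 5.91% and 6.48% in KO (log2 difference -0.60). For each of the 3 the exact permutation test gave p = 0.1, the smallest it can give (adjusted p = 0.15 over the 9 enzymes). Pcx, G6pc and Khk overlapped between the genotypes, with log2 differences of 0.19, -0.37 and -0.36.

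This scale depends on how the markers are weighted. Slc27a2, a fatty acid transporter with a log2 fold change of -0.97, made up 36.5% of the marker sum in WT and 42.8% in KO. Without it, the sum differed by -1.38 on the log2 scale, and Pck1, Fbp1 and Sord did not overlap between genotypes, with log2 differences of -0.38, -0.62 and -0.42. Against that sum, 0.481% of all genes tested were lower in every KO library and 84.1% higher. With each of the 15 markers weighted equally, as the mean of their log2 CPM, the markers differed by -1.61. On that scale Fbp1 alone was lower in every KO library (log2 difference -0.39), and Pck1 (-0.15) and Sord (-0.19) overlapped between the genotypes. With equal weights, 0.335% of all genes tested were lower in every KO library and 88.7% higher. Tkfc stood at 6.4%, 6.05% and 4.84% of the marker sum in WT and at 8.84%, 8.90% and 9.61% in KO (log2 difference 0.67). Pck2 and Fbp2 were higher on this scale as well, but a gene whose CPM does not differ must be higher against a sum that fell, and 82.1% of all genes tested were higher in every KO library.

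**Figure D5:**
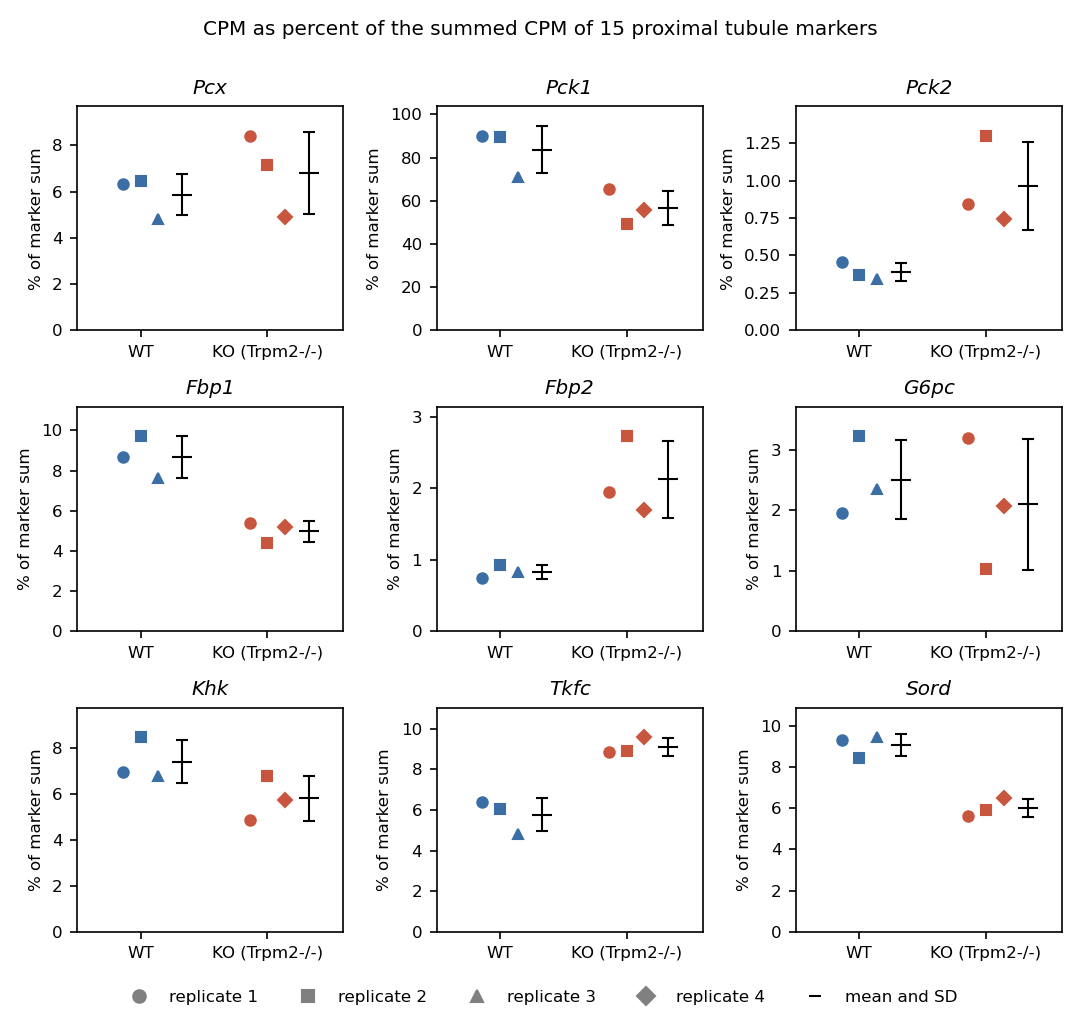
CPM of each enzyme as a percentage of the summed CPM of the 15 proximal tubule markers in the same library (linear axes from 0), 1 point per library, with mean and SD as bars. Pck1, Fbp1 and Sord are lower in all 3 KO libraries, of which Fbp1 alone stays so when the markers are weighted equally. Pck2, Fbp2 and Tkfc are higher in all 3, as are 82.1% of all genes on this scale, and Pcx, G6pc and Khk overlap.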

How the data were processed

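RNA was isolated from kidneys with Trizol and sequenced on an Illumina instrument from NEBNext Ultra II libraries. The deposited tables hold, for 54532 genes, whole-number read counts, which the authors did not normalize, and FPKM values, which the authors made from counts, gene length and a library total. The submitters' processing notes name HISAT2, StringTie and the build mm9. However, 53499 of 54409 gene positions (98.3%) equal those of GENCODE mouse release 21 on GRCm38, so positions are given for GRCm38. Whether strand was used in counting is not given in the sources used here.

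Counts were filtered with filterByExpr, which kept 15816 genes, and scaled by TMM. KO was tested against WT in edgeR 4.0.16 (R 4.3.3) by its quasi-likelihood test, two-sided, with genotype as the only term and p-values adjusted after Benjamini and Hochberg over all 15816 genes. CPM values are TMM-scaled. Intervals are 95% intervals of that fit. Log2 ratios of FPKM were compared by two-sided exact permutation tests (scipy 1.17.1). DESeq2 1.42.0 and limma 3.58.1 served as alternatives. The scripts were tested on simulated counts. Total counts were 14053307 to 17150089 per library, so 3 counts, the most that a count of 0 allows, stand for 0.175 to 0.213 CPM, for counting error only.

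The 9 enzymes and the gene lists were chosen with earlier results of these data known. Genes named are the 9 enzymes, the 4 tested genes of smallest p in each of the lists of neighbouring enzymes and regulators, the genes of the ratios, for each enzyme the 2 protein-coding genes of at least 5 CPM whose log2 CPM, centred on the gene's mean, differed least from it over the 6 libraries, and marker genes. Genes outside this rule are said to be so and were chosen after their values were seen. Some genes and ratios that the rule covers are not reported here. Upstream sequences are from RefSeq (GRCm38.p6) and were found for 9 of 9 enzymes by symbol.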

Additional observations from a re-analysis of the deposited data

How the results depend on the processing

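Each enzyme was refitted under 18 alternatives. Pck1, Fbp1, Khk and Sord were lower and past an adjusted p of 0.05 in all 18, and Pcx in 15. Pcx was not past it without WT replicate 2 (adjusted p = 0.0695, edgeR), with the replicate number as a block, and, in a setting added after seeing the data, in the same 4 libraries without the block (-0.86, adjusted p = 0.0843, edgeR). The number of enzymes lower at that threshold was 4 to 7. G6pc passed it in 5 alternatives and Tkfc in 6. Without a filter on low counts the edgeR fit gave G6pc a p of 3.63e-17 and an SE of 0.168, where its SE was 0.406 with the filter. That fit gave far smaller p for other enzymes too. Fbp1 had 7.57e-28 against 1.47e-06 with the filter, and Sord 2.51e-23 against 1.5e-06 (edgeR). The cause was not tested. This fit counts among the passes of G6pc and Tkfc and set the lowest adjusted p of Pcx and G6pc. Leaving out 1 library at a time, the log2 fold change ranged from -0.02 to 0.23 for Fbp2 and from -0.06 to 0.20 for Pck2. Libraries numbered 1 and 2 in both genotypes did not deviate together (correlations of 0.054 and -0.014), and the numbers mark different mice; with the replicate block, 4 of the 9 enzymes were lower, and Pcx had -0.88 (adjusted p = 0.0553, edgeR). Over all genes, 443 to 1692 were lower and 160 to 1262 higher across the alternatives, against 1152 and 750. With 3 mice a genotype, no permutation p under 0.1 was possible.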
